A study of Mus musculus with 35 samples.

Results

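The genes of the interleukin-6 (IL-6) axis and of the acute phase response were followed in mouse lung across 7 doses of inhaled styrene. Membership was by gene symbol in the annotation of the array, with 8 symbols listed: Il6, Osmr, Socs3, Stat3, Saa3, Lcn2, Lbp and C3. The annotation used here gave probe sets for 7 of these, among 17097 genes measured. C3 had no probe set there and has no value below. The 7 genes have 11 probe sets, and the brightest probe set of each gene over the 35 arrays stands for it.

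IL-6 is a cytokine that binds its own receptor chain (Il6ra) and the shared signalling chain gp130 (Il6st), and the oncostatin M receptor (Osmr) pairs with the same gp130 for a related cytokine. JAK kinases on these chains phosphorylate the transcription factor STAT3, which enters the nucleus and turns on, among other genes, its own inhibitor Socs3. In the acute phase response this pathway, with others, raises secreted defence proteins; in lung these include serum amyloid A3 (Saa3), lipocalin 2 (Lcn2), which withholds iron from bacteria, and the lipopolysaccharide-binding protein (Lbp), and much of this output comes from airway and alveolar epithelium and from macrophages.

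All animals were adult male wild-type C57Bl/6 mice that spent a single 6 h period in a chamber with clean air (0 ppm) or with 1, 5, 10, 20, 40 or 120 ppm styrene vapour, and whole lungs were collected the next morning. Each dose has 5 arrays of total RNA, named in the labels as biological replicates. The number in the title differs from array to array, except that 1 ppm replicate 5 and 5 ppm replicate 1 both carry 15. The p-values measure the spread between these arrays. Values are log2 probe set signals as deposited; a level of one probe set cannot be set against that of another. In whole lung, a change in the number of cells of a type and a change in RNA per cell cannot be told apart.

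The lung identity of the samples was checked with 6 alveolar type 2 cell genes, which lay above the background control on every array. That control is the highest of the array's nonspecific hybridisation probe sets, and its mean was between 5.73 and 6.11 at 0 to 40 ppm but 7.16 at 120 ppm. The 120 ppm arrays stood apart in other array summaries as well: the mean of the poly-A spike-in controls was 1.69 higher than at 0 ppm on the log2 scale and the upper quartile of all signals 0.44 lower (a difference of -0.44), each without overlap (exact two-sided permutation test, p = 0.00794, the smallest that 5 against 5 allows, 0.0397 after Benjamini-Hochberg adjustment). At 120 ppm the dose and these array differences cannot be told apart, and the median of all genes lay 0.15 above 0 ppm on the log2 scale. Between 1 and 40 ppm that median stayed within -0.024 and 0.011. For a gene below the control in the dimmer group, a fold is given as a bound, with the dim arrays set to their own control.

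Promoter sequence is shown for the 4 members with the smallest p in the test over all doses, all of which rose from 5 to 10 ppm. The 250 bases before the RefSeq transcription start (GRCm38.p6) were searched on both strands for a STAT motif (TTCNNNGAA), a C/EBP motif (TTGCNNAA) and an NF-kappaB motif (GGG, any 3 bases, then TTCC), which do not overlap one another in these genes; capitals mark the matches. Lcn2 (minus strand, chr2:32387740-32387989) held a C/EBP match at -216 to -209, and Il6 (plus strand, chr5:30012864-30013113) a C/EBP match at -128 to -121 and an NF-kappaB match at -44 to -35. The start used for Saa3 and Socs3 lies inside the span that RefSeq gives the gene, so for these only the match and 10 bases on each side are shown: a C/EBP match at -99 to -92 of Saa3 (minus strand, chr7:46715758-46715785) and a STAT match at -154 to -146 of Socs3 (minus strand, chr11:117969502-117969530).
Lcn2: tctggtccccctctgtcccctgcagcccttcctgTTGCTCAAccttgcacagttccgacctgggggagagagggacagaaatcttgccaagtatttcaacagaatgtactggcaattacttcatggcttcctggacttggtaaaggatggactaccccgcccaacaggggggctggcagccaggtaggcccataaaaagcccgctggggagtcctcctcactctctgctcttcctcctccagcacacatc
Il6: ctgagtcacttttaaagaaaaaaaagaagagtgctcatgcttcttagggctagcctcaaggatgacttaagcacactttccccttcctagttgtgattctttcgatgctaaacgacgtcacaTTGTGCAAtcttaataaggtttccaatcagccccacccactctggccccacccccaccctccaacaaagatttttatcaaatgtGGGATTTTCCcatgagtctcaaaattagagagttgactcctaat
Saa3: gtaagtgggaTTATGCAAgatcaaacag
Socs3: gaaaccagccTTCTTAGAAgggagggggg
Of 32851 promoters in the same table, 7.02% held the STAT motif, 9.56% the C/EBP motif and 4.65% the NF-kappaB motif in the 250 bases before the start, so each match is a description of these letters only. The windows of Osmr and Stat3 held none of the 3 motifs, and Lbp was not among the promoters used here.

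The ligand gene Il6 (chromosome 5, 30013114 to 30019975, GRCm38.p6) was faint at low dose and higher from 10 ppm on. Its log2 signals were 3.50, 3.46, 3.59, 3.41 and 3.68 in clean air, 3.88, 3.39, 4.25, 3.46 and 3.52 with 1 ppm, and 3.90, 3.70, 4.00, 4.18 and 3.87 at 5 ppm, and none of these 15 arrays reached the background control. The 10 ppm arrays gave 5.92, 6.27, 4.31, 4.95 and 5.54 and the 20 ppm arrays 6.73, 5.80, 5.82, 6.75 and 6.05. Those of 40 ppm gave 4.52, 5.31, 6.92, 5.36 and 5.42 and those of 120 ppm 4.38, 4.79, 4.23, 6.24 and 5.02. Every array at 5 ppm and above lay over the highest clean-air array, but only 2, 3 and 1 of the arrays at 10, 20 and 40 ppm, and 0 at 120 ppm, exceeded the control of their own array. The measured differences from 0 ppm were 1.87, 2.71, 1.98 and 1.40 (SE 0.35) on the log2 scale at 10, 20, 40 and 120 ppm, with adjusted p of 2.16e-04, 8.2e-07, 1.17e-04 and 5.62e-04 (limma). Because the clean-air level is only a bound, Il6 was at least 1.11-fold higher at 20 ppm, and no fold can be given at 10, 40 or 120 ppm.

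Osmr (chromosome 15, 6813568 to 6874968), the receptor chain for oncostatin M, rose at 10 and 20 ppm, was back near the clean-air level at 40 ppm and fell at 120 ppm. The 5 log2 signals were 7.83, 8.21, 8.56, 8.73 and 8.99 at 0 ppm, 9.17, 9.64, 8.59, 9.43 and 9.46 at 10 ppm, and 9.09, 9.44, 9.35, 9.52 and 9.22 at 20 ppm. All 20 ppm arrays and 4 of 5 at 10 ppm lay above the clean-air range, with 1.74-fold and 1.82-fold differences (log2 0.80 and 0.86, SE 0.22, limma adjusted p = 0.0141 and 0.00691). The 10 ppm call ended without clean-air replicate 1 (adjusted p = 0.0708) or without 10 ppm replicate 2 (adjusted p = 0.0541, limma). At 40 ppm the signals of 8.31, 8.92, 8.77, 8.61 and 8.88 overlapped clean air (difference 0.24, 95% interval -0.22 to 0.69, limma adjusted p = 0.603).

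At 120 ppm Osmr measured 7.23, 7.18, 7.37, 8.23 and 7.75, and 4 of the 5 arrays lay under the whole clean-air range. It was at least 1.81-fold lower than at 0 ppm (difference -0.91, limma adjusted p = 5.14e-04) and at least 2.14-fold lower than at 40 ppm (difference -1.15, limma adjusted p = 3.1e-05). With cyclic loess scaling the difference from 0 ppm was -0.49 (adjusted p = 0.0636), and with the poly-A control level as a covariate its sign turned to 0.34 (adjusted p = 0.645, limma). The 2 other Osmr probe sets stayed under the control on nearly every array and add no measurement.

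Transcripts of Stat3 (chromosome 11, 100886806 to 100939594), the transcription factor of the axis, differed little in size. The signals ran from 9.55 to 9.68 in clean air, and at the doses of 1, 5 and 10 ppm from 9.47 to 9.83, from 9.59 to 9.92 and from 9.84 to 9.95. They ran from 9.80 to 10.09 at 20 ppm, from 9.88 to 10.19 at 40 ppm and from 9.79 to 10.03 at 120 ppm. Each array at 10 ppm and above exceeded every clean-air array, by 1.20-, 1.26-, 1.33- and 1.23-fold on average at 10, 20, 40 and 120 ppm (log2 differences 0.26, 0.33, 0.42 and 0.30, SE 0.080; limma adjusted p = 0.0299, 0.00409, 4.19e-04 and 0.00125). The call at 10 ppm ended in 8 of 25 alternative settings, among them the removal of clean-air replicate 1 or 4 or of 10 ppm replicate 3, 4 or 5, with adjusted p up to 0.253 (limma). At 120 ppm the difference was 0.0048 with the poly-A control level as a covariate (adjusted p = 0.989, limma). Stat3 mRNA does not measure STAT3 phosphorylation, which the arrays cannot read.

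Socs3 (chromosome 11, 117966079 to 117970336), the inhibitor that STAT3 induces, climbed in a stepwise manner. The clean-air arrays read 7.48, 7.01, 7.36, 6.95 and 6.99, those of 1 ppm 8.05, 6.91, 7.63, 7.28 and 7.22, and those of 5 ppm 7.79, 7.85, 7.81, 7.70 and 7.36, where 4 of 5 lay above the clean-air range but the difference of 0.54 (SE 0.18) did not pass the test (limma adjusted p = 0.235). The 10 ppm arrays read 8.87, 8.68, 8.19, 8.54 and 8.40, the 20 ppm arrays 9.26, 8.58, 8.73, 8.57 and 8.50, and the 40 ppm arrays 8.52, 8.83, 9.33, 8.60 and 8.47. These 15 arrays all lay above every array at 0, 1 and 5 ppm and overlapped one another across the 3 doses, with rises over clean air of 2.60-, 2.97- and 3.01-fold (limma adjusted p = 9.7e-07, 1.14e-07 and 8.62e-08). At 120 ppm the readings of 9.84, 10.09, 9.71, 10.00 and 9.64 lay above all other doses, 6.49-fold over clean air (log2 2.70, limma adjusted p = 9.67e-15) and 2.15-fold over 40 ppm (log2 1.11, adjusted p = 1.89e-06). With the poly-A covariate Socs3 was still called at 120 ppm against clean air (2.16, adjusted p = 2.2e-04) but not against 40 ppm (0.56, adjusted p = 0.378, limma).

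**Figure D1:**
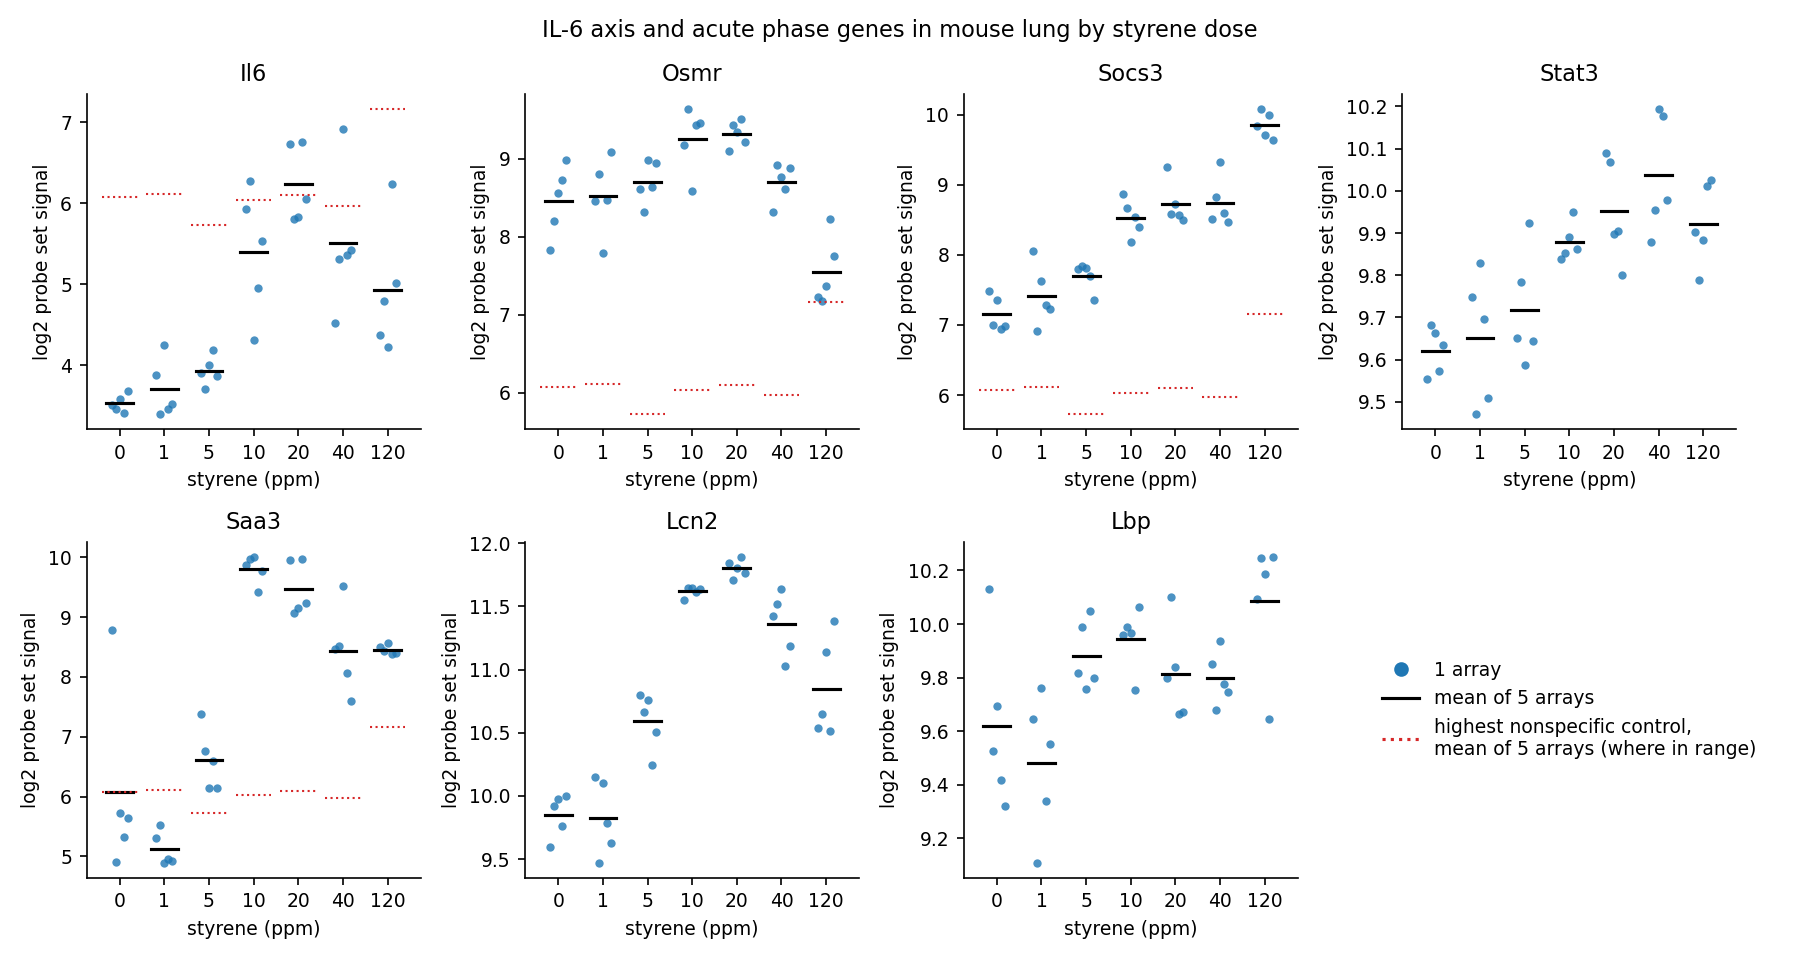
Log2 probe set signal (vertical axes, a separate scale for each gene) of the 7 genes on each array, by styrene dose in ppm (horizontal axes); points are arrays, black lines means of 5 arrays and dotted lines the mean highest nonspecific control where it falls within the axis. Saa3 and Lcn2 are highest at 10 and 20 ppm, Socs3 is highest at 120 ppm, Osmr is lowest there, and Il6 lies at or under the dotted line at most doses.

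Saa3 (chromosome 7, 46711998 to 46719615), the serum amyloid A protein made outside the liver, had the widest span of group means of the 7 genes, 4.68 on the log2 scale. The clean-air arrays read 8.79, 4.90, 5.73, 5.32 and 5.65, so replicate 1 stood well above the other 4, which were under the background control. The 1 ppm arrays lay between 4.90 and 5.52, and those at 5 ppm read 7.37, 6.76, 6.15, 6.59 and 6.15, above each clean-air array except replicate 1. The readings were 9.87, 9.96, 10.00, 9.42 and 9.78 with 10 ppm and 9.95, 9.06, 9.14, 9.96 and 9.24 with 20 ppm, all above the whole clean-air range. Saa3 was at least 9.44-fold higher than in clean air at 10 ppm and at least 7.49-fold higher at 20 ppm (log2 3.73 and 3.39, SE 0.42, limma adjusted p = 6.24e-08 and 4.2e-07).

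The step from 5 to 10 ppm alone was 9.20-fold for Saa3 (log2 3.20, limma adjusted p = 8.36e-06), with both groups above the control and without overlap. Above 20 ppm Saa3 was lower again: 8.46, 8.52, 9.51, 8.06 and 7.59 at 40 ppm, 2.60-fold under 10 ppm (log2 -1.38, limma adjusted p = 0.0428), and 8.38 to 8.56 at 120 ppm. All 40 and 120 ppm arrays lay above the clean-air arrays other than replicate 1, but only 1 at 40 ppm and 0 at 120 ppm lay above replicate 1. On average both doses were over clean air, by at least 3.64- and 3.70-fold (limma adjusted p = 1.39e-04 and 6.36e-06). Without clean-air replicate 1, Saa3 also passed the test at 5 ppm (log2 1.21, limma adjusted p = 0.0105, against 0.53 with all arrays).

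Lcn2 (chromosome 2, 32384637 to 32387739) was the member that changed at the lowest dose. It read 9.60, 9.92, 9.98, 9.76 and 10.00 at 0 ppm and 10.15, 9.47, 10.10, 9.79 and 9.63 at 1 ppm, where the groups overlapped. At 5 ppm it read 10.80, 10.66, 10.76, 10.25 and 10.51, all over the clean-air range, a 1.67-fold rise (log2 0.74, SE 0.14, limma adjusted p = 0.002). The rise was 3.40-fold at 10 ppm, where the arrays lay between 11.55 and 11.65, and 3.86-fold at 20 ppm, where they lay between 11.71 and 11.89 (limma adjusted p = 6.92e-11 and 7.84e-12). The 40 ppm arrays read 11.43, 11.51, 11.64, 11.03 and 11.19 (2.84-fold, limma adjusted p = 3.32e-09), and the 120 ppm arrays 10.54, 10.65, 11.14, 10.51 and 11.39 (1.99-fold, limma adjusted p = 2.59e-07). All exposed arrays from 5 ppm on lay over every clean-air array. From 40 to 120 ppm Lcn2 fell 1.43-fold (log2 -0.51, limma adjusted p = 0.00231), a call lost with cyclic loess scaling (-0.26, adjusted p = 0.0854) and with the poly-A covariate (-0.72, adjusted p = 0.145, limma).

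Lbp (chromosome 2, 158306493 to 158332852), which hands bacterial lipopolysaccharide to CD14, had the smallest F of the 7 genes in the test over all doses, 4.83. The arrays read 10.13, 9.53, 9.70, 9.42 and 9.32 in clean air, and their range overlapped that of each exposed group. The differences at 5, 10, 20 and 40 ppm were 0.26, 0.33, 0.20 and 0.18 (SE 0.13) and did not pass the test (limma adjusted p = 0.77, 0.106, 0.39 and 0.454); the 95% intervals reach up to 0.59 at 10 ppm. Without clean-air replicate 1, which was the highest of its group, Lbp passed at 10 ppm (0.46, limma adjusted p = 0.0126). At 120 ppm it read 10.09, 10.25, 10.19, 9.65 and 10.25, 1.38-fold over clean air (log2 0.47, limma adjusted p = 0.00186) with 3 arrays above the clean-air range. The mean of both Lbp probe sets gave 0.15 at 120 ppm (limma adjusted p = 0.31), the other probe set lying under the control on most arrays.

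Counted together, 0 of the 7 genes changed at 1 ppm, where 0% of all genes passed limma's test at an adjusted p of 0.05 (432 genes higher and 758 lower had an unadjusted p under 0.05, with Saa3 among the lower). At 5 ppm 1 of 7 rose, Lcn2, against 1.13% of all genes. At 10 ppm 6 of 7 rose, all but Lbp, where 5.17% of all genes were higher and 6.62% lower, and at 20 ppm the same 6 rose, beside 6.45% of all genes. At 40 ppm 5 of 7 rose, without Osmr and Lbp, beside 7.69%. At 120 ppm 6 rose and 1, Osmr, fell, but there 42.9% of all genes were called higher and 31.9% lower, so that a call at this dose is common to most genes. The groups did not overlap, with all exposed arrays higher, for 2, 5, 6, 4 and 4 members at 5, 10, 20, 40 and 120 ppm, beside 2.08%, 5.62%, 7.33%, 7.65% and 25.2% of all genes. The median difference of the 7 genes was 0.41, 1.38, 1.57, 1.51 and 0.99 at 5, 10, 20, 40 and 120 ppm, beside 0.0012, -0.024, -0.016, 0.011 and 0.15 over all genes. The members were chosen with earlier results of these data known, so these counts are a description only.

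**Figure D2:**
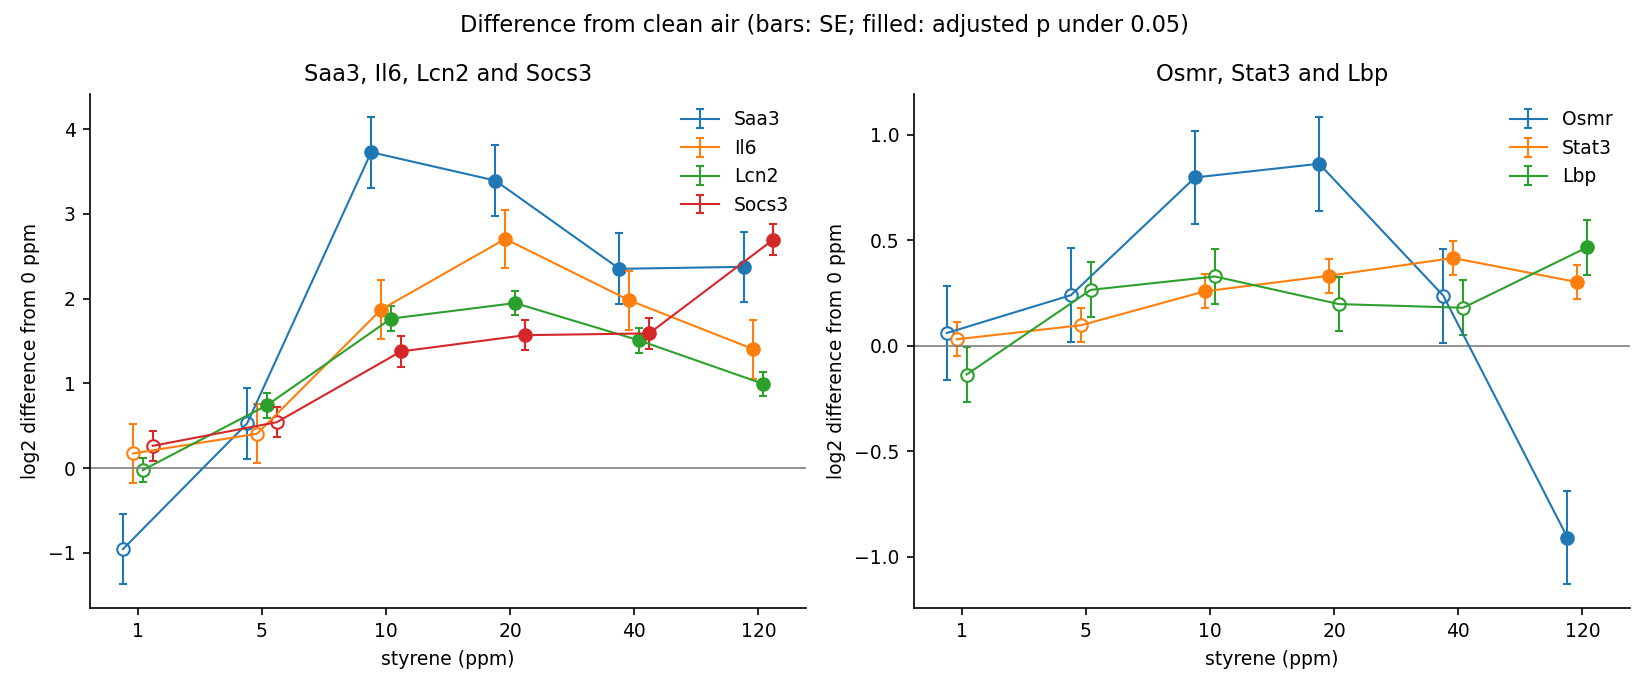
Log2 difference from 0 ppm (vertical axes, 2 scales) at each styrene dose in ppm (horizontal axes) for the 7 genes; points are differences of means of 5 arrays, bars the SE, and filled points passed an adjusted p of 0.05 (limma). Saa3 reaches 3.73 at 10 ppm, Socs3 reaches 2.70 at 120 ppm and Osmr changes sign between 40 and 120 ppm, from 0.24 to -0.91.

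Between neighbouring doses, most calls fell on the steps from 5 to 10 ppm and from 40 to 120 ppm. From 1 to 5 ppm 1 of 7 rose, Lcn2 (1.70-fold, limma adjusted p = 0.00118), beside 1.61% of all genes, and Saa3 missed the threshold (log2 1.48, adjusted p = 0.0556). From 5 to 10 ppm 4 of 7 rose, where 1.5% of all genes did: Il6 (log2 1.47, limma adjusted p = 0.00915), Socs3 (1.78-fold, adjusted p = 0.00376), Saa3 (9.20-fold) and Lcn2 (2.03-fold, adjusted p = 2.87e-05). From 10 to 20 ppm 0 changed, beside 0.0643% of all genes higher and 0.0468% lower, and from 20 to 40 ppm 0 changed, beside 0% (1326 genes higher and 669 lower had an unadjusted p under 0.05 in limma). At that unadjusted level Il6 was higher at 20 than at 10 ppm, and Il6, Osmr, Saa3 and Lcn2 were lower at 40 than at 20 ppm. That does not make these doses equal: the 95% interval of the 20 to 40 ppm difference ran from -1.89 to -0.19 for Saa3, from -0.74 to -0.15 for Lcn2 and from -1.08 to -0.17 for Osmr. From 40 to 120 ppm Socs3 and Lbp rose and Osmr and Lcn2 fell, beside 39.8% of all genes higher and 31.1% lower; the call of Lbp (0.29, limma adjusted p = 0.0486) ended in 14 of 24 alternative settings, in 1 of which its sign turned.

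Ordered by mean level, the doses ran 0, 1, 5, 120, 10, 40 and 20 ppm for Il6, where of the neighbours only 5 and 120 ppm differed. For Socs3 the order followed the dose throughout, with steps past the threshold between 5 and 10 ppm and between 40 and 120 ppm. For Saa3 it was 1, 0, 5, 40, 120, 20 and 10 ppm, with steps between 5 and 40 ppm and between 120 and 20 ppm. For Lcn2 it was 1, 0, 5, 120, 40, 10 and 20 ppm, with steps between 0 and 5 ppm and between 120 and 40 ppm. For Osmr 120 ppm was lowest and differed from its neighbour, 0 ppm, and no other neighbours differed. No neighbours in the order differed for Stat3 or Lbp. Adjustment was made within each pair of doses, so an equal difference passes more easily where many genes are called, as with 120 ppm. Between 120 and 20 ppm Saa3 differed by 1.02 and passed (SE 0.42, limma adjusted p = 0.0279). From 20 to 40 ppm Saa3 differed by -1.04 with the same SE and did not pass (limma adjusted p = 0.337). A step past the threshold in these orders is therefore not always larger than one that missed it.

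Over the 30 arrays from 0 to 40 ppm, each of the 7 genes had a positive slope on the log2 of dose plus 1 that passed an adjusted p of 0.05, as did 13.2% of all genes (limma). The slope per doubling was 0.75 for Saa3, 0.49 for Il6, 0.39 for Lcn2, 0.33 for Socs3, 0.11 for Osmr, 0.082 for Stat3 and 0.057 for Lbp, with limma adjusted p of 1.6e-05, 8.12e-07, 5.59e-09, 3.92e-09, 0.0343, 4.52e-06 and 0.0449. All 7 also passed the F test over the 6 exposed doses, as did 76.3% of all genes.

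The genes with the nearest dose profile were taken by the root mean square distance between the 7 group means, after each gene's mean was removed, among 12094 candidates. The nearest to Lcn2 were Serpina3n, a secreted protease inhibitor (distance 0.19), Pbk, a mitotic kinase (0.22), and Ccl2, a monocyte chemokine (0.22). Serpina3n was also the nearest to Il6 (0.29), followed by the neutrophil chemokine Cxcl1 (0.32) and by Lcn2 (0.33). Saa3 had Timp1, an inhibitor of metalloproteinases (0.33), then Sprr1a, a cornified envelope protein of stressed epithelium (0.58), and Slc26a4, an anion exchanger (0.79). Saa3 and Timp1 both read highest in clean air on replicate 1, which raises the 0 ppm mean of both. The nearest genes of Socs3 were Itga7 (0.12), Fscn1 (0.14) and Bhlha15 (0.17), which like Socs3 had their highest means at 120 ppm. Osmr lay nearest to Hspa13, Tpp2 and Psmd14 (0.085, 0.089 and 0.097), each with its lowest mean at 120 ppm. Stat3 and Lbp, whose means span little, lay nearest to Bex3, Shcbp1 and Gas2l3 (0.041, 0.041 and 0.052) and to Tapbpl, Wars and Cmtr1 (0.057, 0.063 and 0.068). The means of Shcbp1 (4.34 to 4.78) and Gas2l3 (3.81 to 4.09) lay under the mean background control at every dose. In clean air so did those of Pbk, Ccl2, Cxcl1, Sprr1a, Slc26a4, Itga7 and Bhlha15.

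Upstream of the members, the receptors did not move as one. Among 7 receptor genes of the IL-6 family, Osmr alone rose and Il6ra alone fell at 10 and 20 ppm, Il6ra alone changed at 40 ppm, and at 120 ppm 3 rose and 4 fell. With dim genes left out, 0 receptors were called higher at 120 ppm and 4 lower. Cntfr, 1 of the 3 called higher, had 5 of 5 clean-air arrays under the control, and no fold can be given. Over all genes 5.17% rose and 6.62% fell at 10 ppm, and 6.45% rose and 6.74% fell at 20 ppm. At 40 ppm 7.69% rose and 862 of 17097 genes fell, and at 120 ppm 42.9% rose and 31.9% fell. Il6ra, the IL-6 binding chain, ranged from 8.50 to 8.96 in clean air, from 7.71 to 8.01 at 10 ppm, from 7.68 to 8.03 at 20 ppm, from 7.68 to 8.34 at 40 ppm and from 7.98 to 8.09 at 120 ppm. None of these exposed arrays reached the clean-air range, and Il6ra was 1.80-, 1.77-, 1.46- and 1.61-fold lower (limma adjusted p = 2.37e-06, 3.97e-06, 0.00126 and 3.45e-06), although the 120 ppm call was lost with cyclic loess scaling (-0.23, adjusted p = 0.101). Il6st, the shared gp130 chain, kept means between 10.27 and 10.41 from 0 to 40 ppm and ranged from 8.26 to 9.18 at 120 ppm, 3.42-fold lower (limma adjusted p = 2.32e-15). Lifr, the chain for leukaemia inhibitory factor, was at least 1.97-fold lower at 120 ppm (limma adjusted p = 3e-04).

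**Figure D3:**
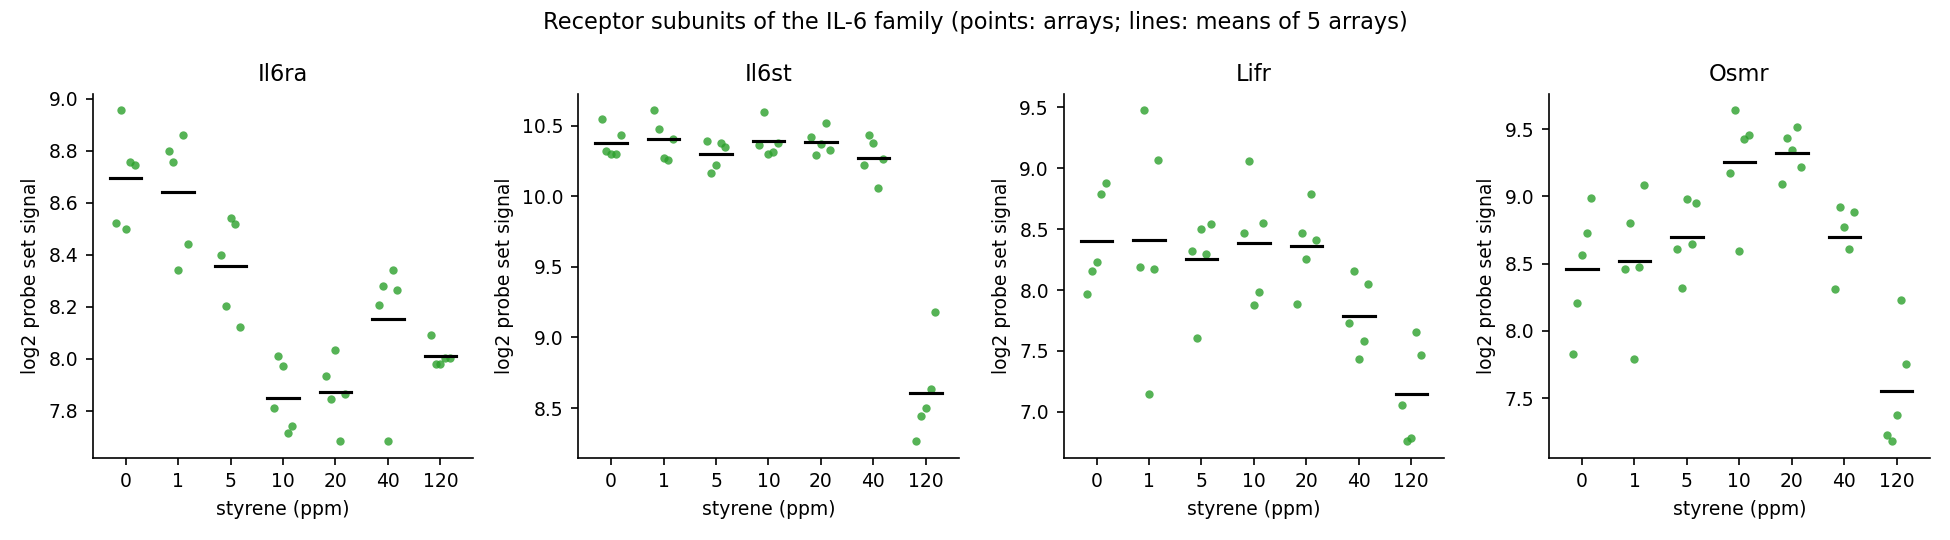
Log2 probe set signal (vertical axes, a separate scale for each gene) of 4 receptor chains by styrene dose in ppm (horizontal axes); points are arrays and black lines means of 5 arrays. Il6ra is below its clean-air range from 10 ppm on, while Il6st departs from it at 120 ppm, where its arrays lie between 8.26 and 9.18.

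Of 6 measured ligand genes, 2 rose at 10, 20 and 40 ppm and 6 at 120 ppm; the pair was Il6 and Lif at each of the first 3 doses, and Ctf1, cardiotrophin 1, fell at 10 ppm (at least 1.46-fold lower, limma adjusted p = 2.66e-04). Over all genes 5.17%, 6.45% and 7.69% rose at 10, 20 and 40 ppm, and 42.9% rose and 31.9% fell at 120 ppm. With dim genes left out, Il6 and Lif among them, 1 ligand was called higher at 120 ppm and 0 at 10, 20 and 40 ppm. Lif lay under the control in clean air and was at least 1.26-fold higher at 120 ppm (log2 1.58, limma adjusted p = 1.51e-10), and Ctf1 was 2.37-fold higher there. Among 6 JAK and STAT genes, Stat3 rose and Stat5b, another STAT factor, fell at 10, 20 and 40 ppm (Stat5b 1.36-, 1.41- and 1.31-fold lower, limma adjusted p = 0.0105, 0.0038 and 0.0247). The Stat5b call at 40 ppm was lost with arrays centred on their median (-0.34, adjusted p = 0.0739, limma). At 120 ppm 3 rose and 2 fell, with Jak1 at least 3.01-fold lower (limma adjusted p = 1.32e-13).

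Among 8 feedback inhibitors, 3, 2, 3 and 4 rose at 10, 20, 40 and 120 ppm, Socs3 at each, and 3 fell at 120 ppm. The shares of all genes called higher at these doses were 5.17%, 6.45%, 7.69% and 42.9%, and 31.9% were called lower at 120 ppm. Ptpn2, a phosphatase that acts on JAK and STAT proteins, was 1.59-fold higher at 10 ppm and 1.94-fold at 20 ppm (limma adjusted p = 0.048 and 0.00296). Cish, a SOCS family member, was 1.51-fold higher at 40 ppm and 2.76-fold at 120 ppm (limma adjusted p = 0.00366 and 4.15e-11). Socs1 was called higher at 10, 40 and 120 ppm with its clean-air arrays all under the control. Socs2 was 2.61-fold and Pias1 at least 2.61-fold lower at 120 ppm (limma adjusted p = 1.57e-11 and 1.1e-12).

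Among 20 known STAT3 target genes outside the members, 1, 7, 9, 11 and 13 rose at 5, 10, 20, 40 and 120 ppm; none fell before 120 ppm, where 4 did. Of all genes 1.13%, 5.17%, 6.45%, 7.69% and 42.9% rose at these doses, and 31.9% fell at 120 ppm. The median difference of the list was 0.061, 0.30, 0.39, 0.52 and 0.88, beside 0.0012, -0.024, -0.016, 0.011 and 0.15 over all genes. Like the members and the other lists, this list was chosen with earlier results of these data known. Its counts are therefore a description and not an independent test of STAT3 activity. Lrg1, a secreted leucine-rich glycoprotein, rose at each dose from 5 ppm: its arrays ranged from 9.06 to 9.58 in clean air, from 10.48 to 11.20 at 5 ppm, from 11.53 to 11.78 at 10 ppm and from 11.98 to 12.41 at 120 ppm. Those groups did not overlap clean air, and the rises were 2.57-fold at 5 ppm, 4.78-fold at 10 ppm and 6.93-fold at 120 ppm (limma adjusted p = 6.7e-07, 2.72e-12 and 5.9e-16). Timp1 was 10.8-fold higher at 10 ppm and 7.54-, 6.74- and 5.78-fold at 20, 40 and 120 ppm (limma adjusted p = 1.23e-11, 6.14e-10, 2.9e-09 and 2.33e-10). Its clean-air level rests in part on replicate 1, which read 8.95 against 6.88 to 7.45 on the other 4 arrays. Bcl3, a nuclear regulator of NF-kappaB, was 1.78-fold higher at 10 ppm and 4.34-fold at 120 ppm, and Junb, an AP-1 subunit, 2.23-fold at 40 ppm and 5.69-fold at 120 ppm (limma adjusted p = 0.00174, 4.35e-12, 2.2e-05 and 5.24e-14).

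The wider acute phase list has 27 measured genes, among them Saa3, Lcn2 and Lbp. Outside these 3, 2, 9, 9, 7 and 7 of 24 rose at 5, 10, 20, 40 and 120 ppm, and 0, 0, 1, 2 and 6 fell. At 120 ppm these shares lie below those of all genes, of which 42.9% were higher and 31.9% lower. At 5, 10, 20 and 40 ppm 1.13%, 5.17%, 6.45% and 7.69% of all genes were higher. The median difference of the 24 genes was -0.18, 0.065, 0.38, -0.057 and -0.13 at 5, 10, 20, 40 and 120 ppm. The list includes the liver proteins Hpx, Fga, Fgb and Fgg, named after their values were seen. Among the clean-air arrays they were highest on replicates 3 and 4 (Fga 7.94 and 6.63, against 3.92 to 4.44 on the others). Those were the clean-air arrays with the highest hepatocyte marker levels, 8.42 and 7.13, in a marker list that itself includes Fgb. That level was also high on 2 exposed arrays, 1 ppm replicate 2 (8.87) and 20 ppm replicate 2 (7.75). The part of these liver proteins in the median was not tested. The genes at 5 ppm were Itih4, a secreted inhibitor family member (2.06-fold, limma adjusted p = 7.32e-04), and Cd14, the lipopolysaccharide co-receptor (1.71-fold, adjusted p = 0.00141). Serpina3n ranged from 8.64 to 9.09 in clean air and from 10.39 to 10.83 at 10 ppm, and its rise was 3.45-, 3.44- and 3.27-fold at 10, 20 and 40 ppm (limma adjusted p = 2.66e-10, 3.22e-10 and 1.23e-09). Itih4 was 2.76-, 2.72- and 2.32-fold higher at these doses (limma adjusted p = 7.69e-07, 1.1e-06 and 2.08e-05).

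Saa1 and Saa2, which are near-identical to each other and whose probes may not tell them apart, were called higher at 10 ppm (log2 1.74 and 1.36, limma adjusted p = 9.35e-06 and 1.01e-04), but none of their arrays at that dose was above the control and no fold can be given. The genes called lower at 20 and 40 ppm, named because they are few and after their values were seen, were Orm3 at 20 ppm and Hp and C1s1 at 40 ppm. Orm3 read only 3.29 to 3.69 in clean air, under the control on every array there, so no fold can be given. Haptoglobin (Hp), which binds free haemoglobin and is also made by club cells, differed by -0.41 at 40 ppm and by -0.46 at 120 ppm (limma adjusted p = 4.82e-04 and 5.39e-06). C1s1, a complement protease, was at least 4.52-fold lower and Cp, ceruloplasmin, at least 1.99-fold lower at 120 ppm (limma adjusted p = 3.78e-14 and 3.31e-05). For 24 pathway genes checked under 3 other scalings, each called value kept its direction, and 3 of 204 calls were lost, those of Il6ra at 120 ppm, Stat5b at 40 ppm and Socs1 at 40 ppm.

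**Figure D4:**
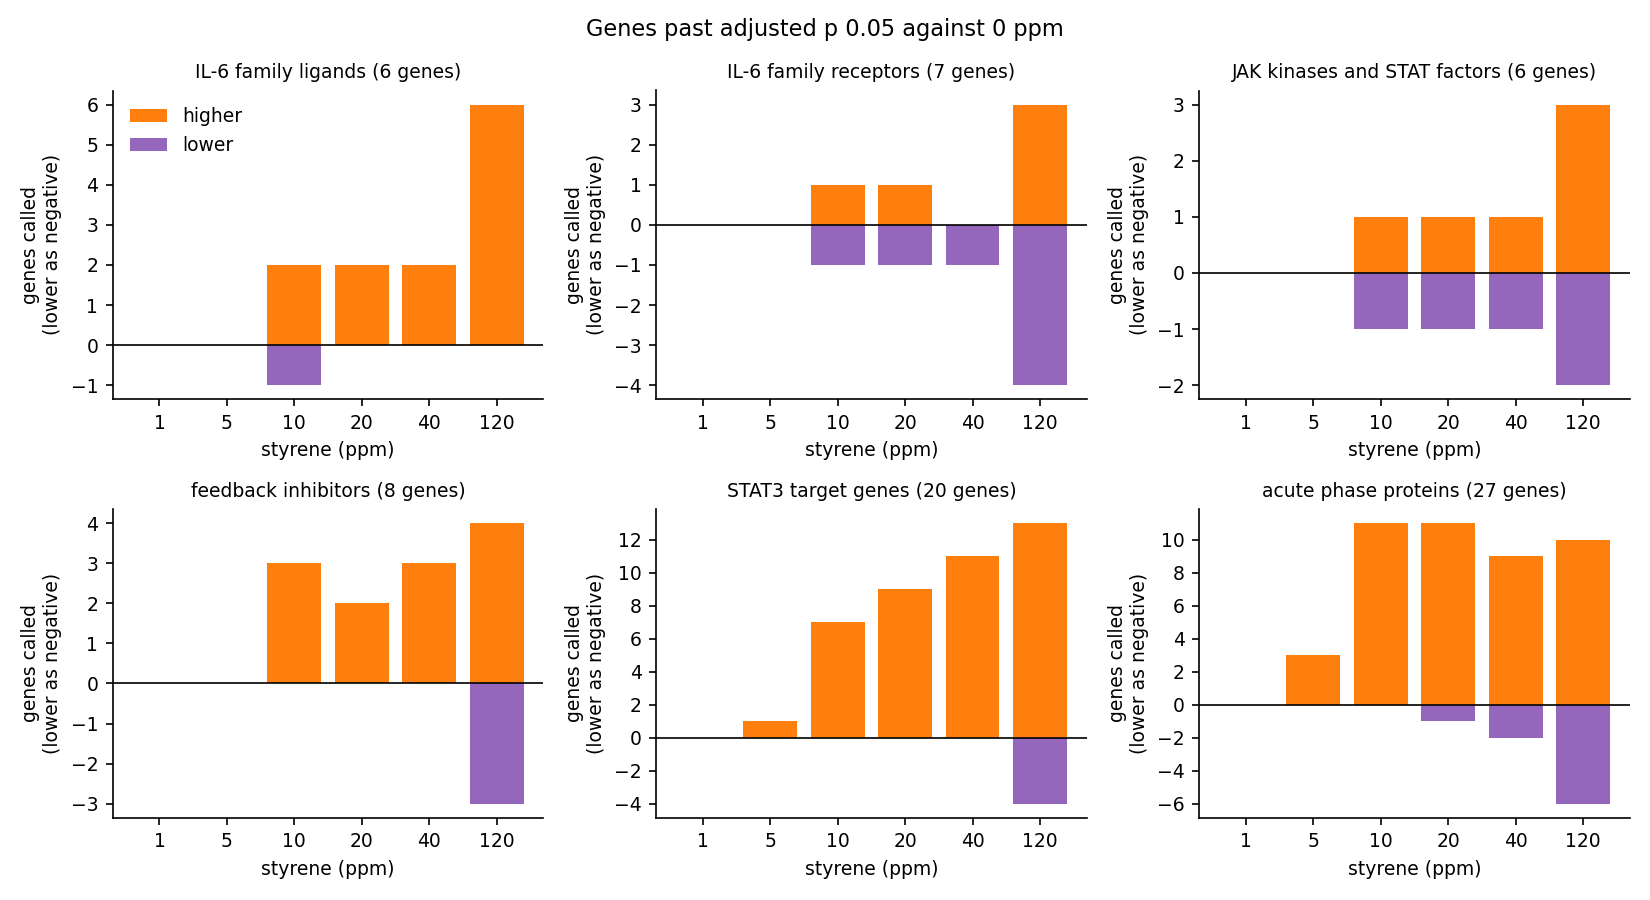
Number of genes past an adjusted p of 0.05 against 0 ppm (vertical axes; genes called lower are drawn below 0) in 6 gene lists, by styrene dose in ppm (horizontal axes); the lists include the members. The STAT3 target list gains from 1 gene higher at 5 ppm to 13 at 120 ppm, and the acute phase list has 11 higher at 10 and 20 ppm.

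Marker genes of other cells were set beside these changes, since neutrophils carry lipocalin 2 and monocytes and macrophages make many of the same proteins. Of 10 neutrophil markers, 0 rose from 1 to 40 ppm by limma's test (0 also at an unadjusted p under 0.05). S100a8 fell at 10 ppm. At an unadjusted p under 0.05 in limma, 4, 2 and 1 markers were lower at 10, 20 and 40 ppm. Over all 17097 genes 2289, 2306 and 1835 were lower at that level. At 120 ppm Camp rose and Mmp8 fell. The mean level of the list was between 4.94 and 5.92 over the clean-air arrays, between 4.71 and 5.29 at 10 ppm and between 4.91 and 5.42 at 20 ppm, the doses at which Lcn2 and Saa3 were highest. At 10 to 120 ppm 8 of the 10 markers were above the control on no array, and the remaining 2, S100a8 and S100a9, were above it on all arrays. Of 7 inflammatory monocyte markers, F10, Vcan and Fn1 rose at 10 and 20 ppm and Vcan at 40 ppm, and the list level moved from between 7.52 and 7.93 in clean air to between 8.42 and 8.69 at 10 ppm. At 120 ppm F10 rose, Ccr2, Chil3, Plac8 and Fn1 fell, and the level was between 7.07 and 7.51. Of all genes 5.17%, 6.45%, 7.69% and 42.9% were called higher at 10, 20, 40 and 120 ppm. Called lower were 6.62% at 10 ppm and 31.9% at 120 ppm. The part of the monocyte shifts in the members' rise was not tested.

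Of 10 alveolar macrophage markers 3 rose and 2 fell at 10 and 20 ppm and 7 fell at 120 ppm, where the list level was between 7.57 and 8.13 against 8.46 to 8.86 in clean air. Of 7 fibroblast markers 1 rose and 4 fell at 120 ppm, and the list level was between 7.53 and 7.86 there against 8.39 to 8.73 in clean air. Of 7 club cell markers, a list that includes Hp, 4, 4, 7 and 6 fell at 10, 20, 40 and 120 ppm. Beside these lists, 6.62% of all genes were called lower at 10 ppm, 6.74% at 20 ppm, 862 of 17097 at 40 ppm and 31.9% at 120 ppm. Called higher were 5.17% at 10 ppm, 6.45% at 20 ppm and 42.9% at 120 ppm. Of 13 hepatocyte markers 0 changed from 1 to 40 ppm by limma's test and 3 fell at 120 ppm. At an unadjusted p under 0.05 in limma, 2 were lower at 5 ppm, 6 at 10 ppm and 4 at 40 ppm. However, the level of this list differed widely between arrays of the same dose: 4.02, 3.91, 8.42, 7.13 and 4.19 in clean air. It was also high on 1 ppm replicate 2 (8.87) and 20 ppm replicate 2 (7.75). The clean-air array with high Saa3, replicate 1, was not among those with high hepatocyte markers. The part of these cell type shifts in the members' values was not tested.

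**Figure D5:**
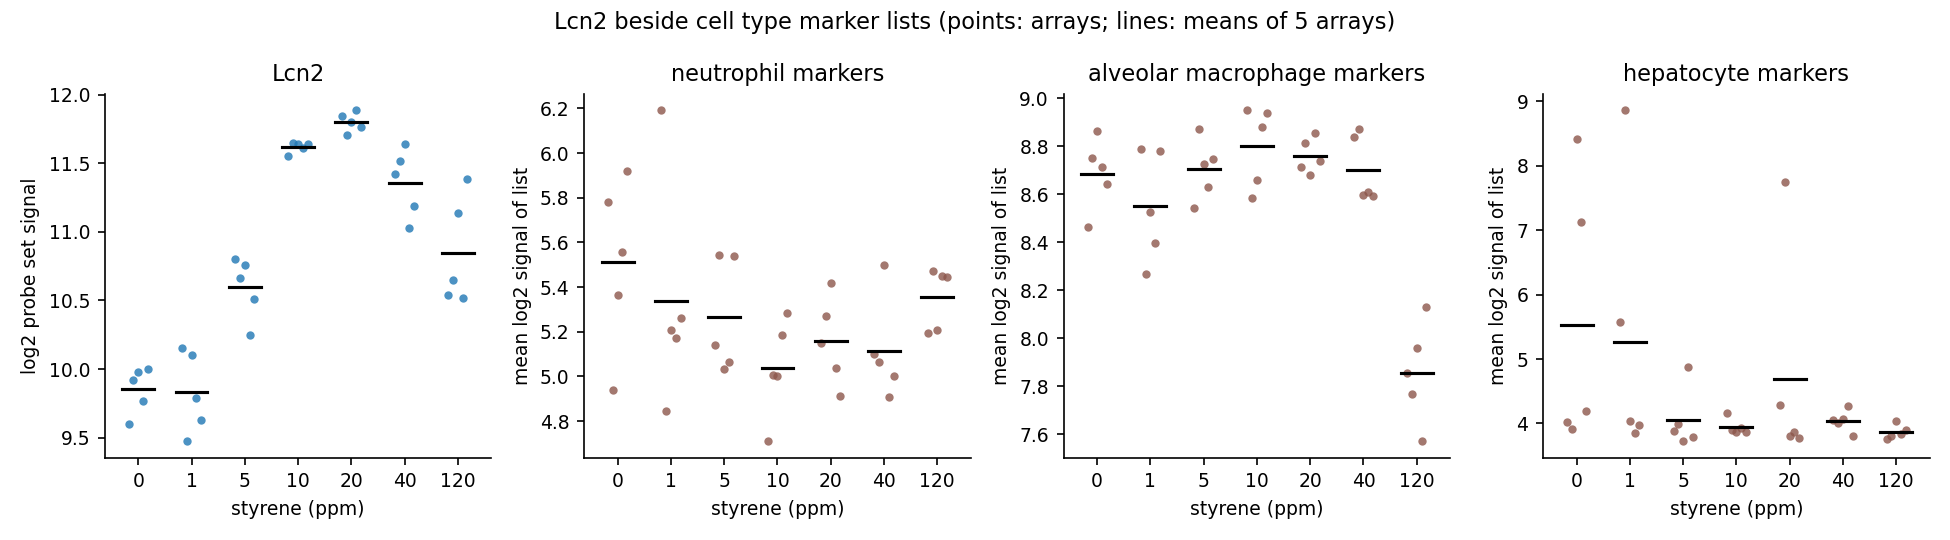
Log2 signal of Lcn2 and mean log2 signal of neutrophil, alveolar macrophage and hepatocyte marker lists (vertical axes, separate scales) by styrene dose in ppm (horizontal axes); points are arrays and black lines means of 5 arrays. Lcn2 is highest at 20 ppm, where the neutrophil list lies between 4.91 and 5.42, within or just below its clean-air range.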

How the data were processed

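Whole-lung RNA was measured on 35 arrays, 5 at each of 7 doses. The authors deposited log2 signals of 45141 probe sets that were summarised with RMA in Partek, per the submitters' processing notes, which give no versions. RMA equalises the distributions of arrays, compresses large folds and sets no floor, so faint probe sets hold background. Of the probe sets, 104 were controls, 28898 named 1 gene, 551 several and 15588 were not listed; 17097 genes were tested, each by its brightest probe set.

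limma 3.58.1 (R 4.3.3) fitted a mean per dose to the 35 arrays, with two-sided tests and Benjamini-Hochberg adjustment over all genes at 0.05; the script was tested on simulated data. The other tests were a moderated F test, a slope on log2(dose + 1) from 0 to 40 ppm, and the 21 pairs of doses for the order of levels. The number of arrays limits the precision. The members and lists were chosen with earlier results of these data known. The text names the members, up to 4 called genes with the largest difference per list and dose, the 3 nearest profiles per member and, for few counts, the genes counted. Promoters came from RefSeq; 7 of the 8 symbols matched there. Alternatives covered probe sets, filters, thresholds, scaling, array weights, covariates and left-out arrays. Replicate numbers did not meet the criterion for pairing (every same-numbered pair correlated over 0.1) and entered only the alternative with a replicate block.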

Additional observations from a re-analysis of the deposited data

Results flagged for a closer look

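In 49 groups of 5 arrays (7 genes at 7 doses), 2 held an array set apart from its group by more than 0.71 of the group's range, a limit that chance passes in about 1 of 20 groups. Saa3 read 8.79 on clean-air replicate 1, against 4.90 to 5.73 on the other 4 arrays. That array was the highest of its group for 3 of the 7 members (Socs3, Saa3 and Lbp), for 8 of 27 acute phase genes and for 8 of 20 STAT3 target genes, beside 35.5% of all genes. The genes furthest above the median of the other arrays included Timp1 (1.85 on the log2 scale), Cfb (1.85) and Cebpd (1.11), chosen after their values were seen. Lbp read 9.65 on 120 ppm replicate 4, against 10.09 to 10.25 on the other 4 arrays.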

How the results depend on the processing

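The counts of members called at 1, 5, 10, 20 and 40 ppm, from 5 to 10 ppm and from 10 to 20 ppm, and over all doses, stayed within 1.5 times the reported count in every alternative that left no array out. From 1 to 5 ppm the count of 1 became 2 with dim genes left out, with a threshold of 0.1, with only the groups compared in the fit and with the replicate block, and 3 with array weights. From 20 to 40 ppm it became 1 with array weights, and from 40 to 120 ppm it fell from 4 to 2 with a fold of at least 1.5 and to 0 with the poly-A covariate; at 120 ppm that covariate left 1 of 7. The poly-A level separates the 120 ppm arrays from all others, so this covariate also widens the error there (for Il6 the SE is 0.82). Leaving out each array in turn gave 1 to 2 members at 5 ppm, 5 to 6 at 10 ppm, 3 to 5 from 40 to 120 ppm and 5 to 7 with a slope; the 2 at 5 ppm came without clean-air replicate 1.

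Direction turned for Osmr at 120 ppm with the poly-A covariate, to 0.34 against 0 ppm and 0.13 against 40 ppm. It also turned with another Osmr probe set, to 0.29, but that probe set was under the control on every array at 0 and 120 ppm. The remaining Osmr probe set, also under the control at both doses, had means of 4.49 at 0 ppm and 3.18 at 120 ppm. For Lbp the direction turned from 40 to 120 ppm to -0.038 with the mean of its probe sets, and at 120 ppm to -0.16 with its other probe set. The cause of these turns was not tested. Stat3 at 20 and 40 ppm lost its call with the mean of its probe sets (adjusted p = 0.18 and 0.132, limma). The replicate number as a block added the call of Saa3 from 1 to 5 ppm (adjusted p = 0.0297, limma) and changed no other call of a member. Deviations correlated over 0.1 in 53 of 105 same-numbered pairs (median 0.11) and in 110 of 420 others (median -0.033), and 17 of 35 arrays correlated best with their own number, a hint from the data and not from the design. Over all genes, array weights raised the calls to 43, 321, 3586, 4061 and 3883 at 1, 5, 10, 20 and 40 ppm, and a fold of at least 1.5 left 799, 870, 838 and 8174 at 10, 20, 40 and 120 ppm. The median of all genes at 120 ppm was 0.15 as deposited, 0.24 with arrays centred on their median and 0.082 with cyclic loess. Of the lists, the poly-A covariate left 3 ligands, 2 receptors, 1 JAK or STAT gene, 8 STAT3 targets and 2 acute phase genes called at 120 ppm, and cyclic loess left 4 receptors (2 higher, 2 lower). Feedback inhibitors at 20 ppm numbered 4 to 6 in 5 settings against 2, and STAT3 targets at 10 ppm 11 with array weights against 7. With dim genes left out, 7 acute phase genes were called at 10 and 20 ppm, and Il6 was not tested. Signal over background limits, among others, Il6, Lif, Socs1, Saa1, Saa2, Orm3 and Cntfr.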
